A study of Arabidopsis thaliana with 9 samples.

Results

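The wild-type baseline was described from the 3 libraries of Arabidopsis thaliana seedlings of the accession Col-0, out of 9 libraries in the series. Members were taken by their column labels alone. The Col-0 plants carried no transgene. They were grown in soil at 22 °C under long days of 16 h light and 8 h darkness and were sampled 7 days after germination at zeitgeber time 14 (ZT14), which is 14 h after the lights came on and 2 h before darkness. The other 6 libraries, sampled at the same age and time, came from 35S:CO, which expresses the flowering regulator CONSTANS (CO) from the viral 35S promoter, and from SUC2:CO (SUC2:HA:CO), which expresses HA-tagged CO under the companion cell promoter SUC2 in the co-10 background. These lines are used below only to show where Col-0 differs, and each has 3 libraries. Nothing in the labels says whether the replicates came from separate plantings, or whether plants were pooled, so spreads and p-values measure the variation between these libraries, which may be technical.

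The plant circadian clock is a loop of repressors that take turns through the day. CCA1 and LHY, a pair of Myb-like factors, accumulate around dawn and repress evening genes through a promoter sequence called the evening element, while evening genes such as TOC1 and the ELF3, ELF4 and LUX complex repress the morning genes in turn. Late in a long day GI and FKF1 remove the cycling DOF factors that repress CO, and CO then activates FT, whose protein is the mobile florigen. The levels below are a cut through these loops at 1 time point, so they show amounts and not rhythms. The time of day assigned to each gene is textbook knowledge, not a result of these data.

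Depth was close to equal. The Col-0 libraries held 26213977, 25563118 and 26298528 counts over 32833 genes, so that 3 counts corresponded to 0.114 to 0.117 CPM (the count's share of the library total, in parts per 1000000). Of all genes, 20013, 19618 and 20324 had more than 3 counts. In the first library 472 genes held 50% of the counts, in the second 373 and in the third 530. Plastid genes, identified by their locus prefix, took 1.102%, 1.19% and 1.45% of counts. CPM values rank genes by their share of counts, which grows with gene length, and levels of different genes are compared per length, as TPM, the length-scaled counterpart of CPM. TPM values divide each count by the length of the gene's merged exons and are scaled to a common total over 32548 nuclear genes. The median over the 20985 nuclear genes with more than 3 counts in a Col-0 library was 8.35 TPM.

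The labelled tissue was checked with marker genes. The phloem companion cell markers SUC2, a sucrose transporter, and APL, a phloem identity factor, were plainly present, SUC2 with 4119, 4998 and 4522 counts. The guard cell channel gene KAT1 had 818, 943 and 997 counts. In contrast, 3 of 7 root markers, the root hair genes RHD6 and EXPA7 and the root stem cell factor PLT1, were at 0 in all 3 Col-0 libraries, which allows at most 0.117 CPM each. COBL9 had 1, 0 and 7 counts and CASP1, which builds the Casparian strip, had 1, 0 and 8. Most root marker counts came from the nitrate transporter NRT2.1, with 114, 278 and 145 counts of list sums of 145, 278 and 177. WOX5, a root stem cell factor, had 29, 0 and 17 counts. The markers of root hairs and endodermis were thus at or near 0 in libraries labelled seedling, those of root stem cells were at 0 for PLT1 and low but detected in 2 libraries for WOX5, and the labels do not state whether roots were collected. Seed storage genes summed to 9, 11 and 7 counts over 4 genes, and floral organ genes to 1, 3 and 6 counts over 3 genes. In bulk samples, fewer cells of a type and less RNA per cell cannot be told apart.

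The sequences upstream of the clock genes are shown first, because the evening element is the letter string AAAATATCT to which the morning factors bind. Windows of 300 bases, 250 before and 50 after each annotated gene start, were read from the RefSeq TAIR10.1 genome and searched on both strands. The evening element was in 11 of 15 evening promoters (73.3%), in 3 of 20 morning promoters (15%) and in 2.82% of all 27443 protein-coding promoters. The window of GRP7 held 3 copies, the highest number found in any promoter, and those of FKF1, JMJD5 and COR27 held 2. The windows of PRR3, GI, ELF3 and ELF4 held none, and among morning genes RVE7, PRR9 and COL2 held 1 each. Below, capitals mark the evening element on either strand in GRP7 (chr2:9266508-9266807, minus strand), TOC1 (chr5:24674713-24675012, plus strand) and LUX (chr3:17182792-17183091, plus strand). In CCA1 (chr2:19245341-19245640, plus strand), which held no evening element, capitals mark a G-box, CACGTG, a site of light-responsive factors.
GRP7: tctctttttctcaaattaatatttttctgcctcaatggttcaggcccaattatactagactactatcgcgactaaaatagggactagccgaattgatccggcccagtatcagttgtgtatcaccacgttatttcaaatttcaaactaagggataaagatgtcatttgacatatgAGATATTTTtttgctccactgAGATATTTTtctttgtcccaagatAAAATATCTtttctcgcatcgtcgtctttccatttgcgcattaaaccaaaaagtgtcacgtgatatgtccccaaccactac
TOC1: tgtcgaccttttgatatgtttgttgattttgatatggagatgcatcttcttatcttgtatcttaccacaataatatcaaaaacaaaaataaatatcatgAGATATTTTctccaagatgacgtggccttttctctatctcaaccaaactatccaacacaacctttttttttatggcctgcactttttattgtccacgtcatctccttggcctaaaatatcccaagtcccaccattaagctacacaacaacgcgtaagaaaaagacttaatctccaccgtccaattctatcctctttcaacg
LUX: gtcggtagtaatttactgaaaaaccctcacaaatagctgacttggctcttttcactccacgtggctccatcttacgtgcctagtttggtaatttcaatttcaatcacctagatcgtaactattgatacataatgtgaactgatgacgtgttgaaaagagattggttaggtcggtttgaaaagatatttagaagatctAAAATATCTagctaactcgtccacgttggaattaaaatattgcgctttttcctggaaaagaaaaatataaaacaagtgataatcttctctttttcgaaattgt
CCA1: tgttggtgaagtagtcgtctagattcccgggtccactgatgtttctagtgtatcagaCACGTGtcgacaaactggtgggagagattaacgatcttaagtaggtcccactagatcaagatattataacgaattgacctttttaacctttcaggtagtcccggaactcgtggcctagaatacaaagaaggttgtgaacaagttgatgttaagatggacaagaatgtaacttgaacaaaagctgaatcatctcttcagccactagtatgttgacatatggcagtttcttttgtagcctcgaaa
The G-box was in 11 of 20 morning promoters (55%), in 3 of 15 evening promoters (20%) and in 7.68% of all protein-coding promoters. The shorter CCA1 binding site, AAAAATCT, was in 3 of 20 morning and 2 of 15 evening promoters, against 7.88% of all. A match is a description of letters and not a shown binding site.

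Evening genes stood well above morning genes at ZT14. The median level of the 15 evening genes was 26.7, 25.9 and 30.6 TPM in the 3 libraries, and the median of the 20 morning genes was 3.08, 2.51 and 2.50 TPM, a ratio of medians of 8.67, 10.3 and 12.2. In every library all 15 evening genes exceeded the morning median, and only 1 morning gene, RVE2, exceeded the evening median. Of the evening genes 13 of 15 were above the median of all detected nuclear genes, and of the morning genes 4 of 20. Summed over the lists, evening genes reached 2976 ± 312 TPM and morning genes 214 ± 21.6 TPM (SD, n = 3), a ratio of 14.02 ± 2.51. That ratio rested on few genes. It was 2.92 ± 0.487 without GRP7 and CAT3, 38.5 ± 3.78 without RVE2, and 8.00 ± 0.152 without all 3.

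**Figure D1:**
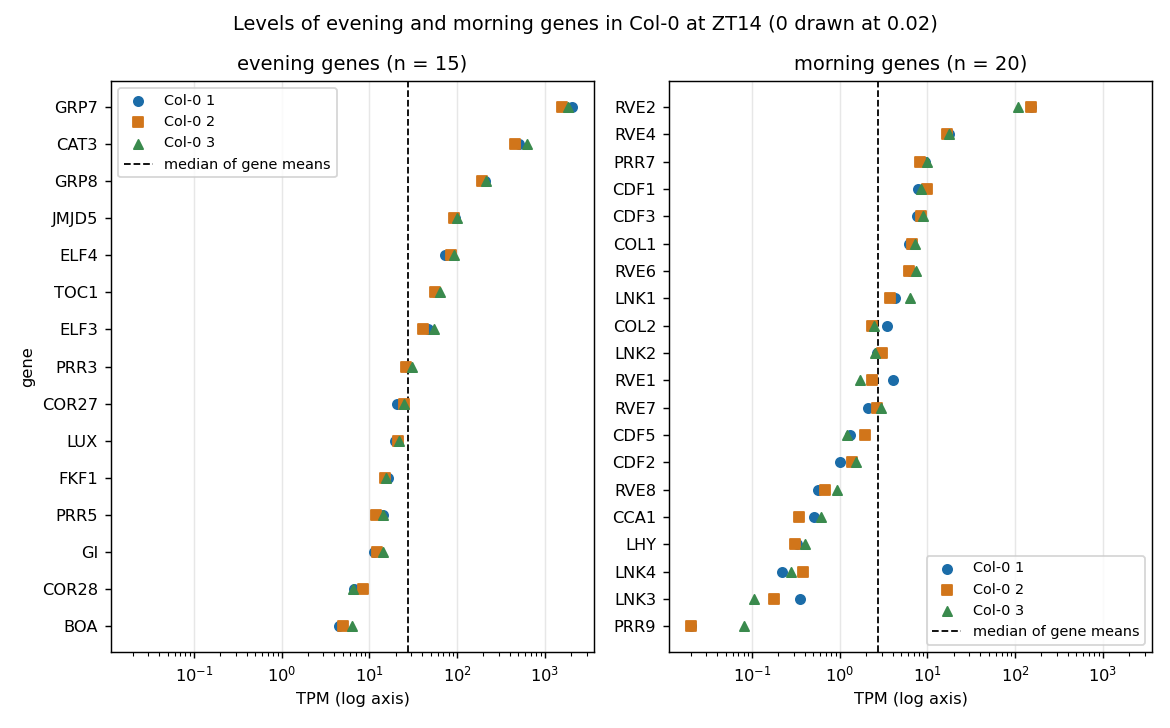
TPM on a log axis of each evening gene (left) and morning gene (right) in the 3 Col-0 libraries, 1 symbol per library, with the median of the gene means as a dashed line. The evening genes run from BOA at 5.27 to GRP7 at 1825 TPM, and all morning genes but RVE2 lie at or below the 17.6 TPM of RVE4 in its highest library.

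The dawn repressors were low but detected in every library. LHY had 19, 18 and 24 counts, or 0.346 ± 0.052 TPM, and CCA1 had 24, 16 and 29 counts, or 0.492 ± 0.136 TPM (SD, n = 3). Their ranges over the libraries overlapped. TOC1, the evening repressor of both, had 2729, 2645 and 3095 counts and 58.6 ± 4.51 TPM, which was 67.6, 84.6 and 62.4 times the summed TPM of LHY and CCA1. Among the other Myb-like genes of the REVEILLE family, RVE8, an activator of evening genes, had 23, 27 and 38 counts. RVE4 and RVE6 were higher, at 17.3 ± 0.528 and 6.65 ± 0.695 TPM. RVE2 was the exception of the morning list, with 2534, 2536 and 1844 counts and 137 ± 24.6 TPM, more than all other morning genes together.

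The day-phased pseudo-response regulators differed in level. PRR9 had 0, 0 and 3 counts and was silent by the rule used below, while PRR7 had 516, 454 and 558 counts. PRR9 shares part of its sequence with other loci, since 58.9% of its 31-base words occur once in the genome, and RVE7 has only 37.0%, so their counts are uncertain. All 4 cycling DOF factors, repressors of CO, were low but detected, from CDF2 at 1.32 ± 0.278 to CDF1 at 8.73 ± 1.07 TPM. The 4 LNK coactivators ran from LNK3 at 0.212 ± 0.128 to LNK1 at 4.74 ± 1.36 TPM. Of the 19 pairs of neighbours in the order of morning levels, 7 had ranges that did not overlap between the genes.

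Among evening genes the most abundant encoded metabolic and RNA-binding proteins rather than core repressors. GRP7, a glycine-rich RNA-binding protein, had 41406, 30852 and 37200 counts and 1825 ± 256.4 TPM, and its relative GRP8 had 207 ± 11.2 TPM. CAT3, a catalase, had 29718, 26695 and 36378 counts and 532 ± 80.9 TPM. The evening complex was unequal in its parts, with 83.4 ± 9.39 TPM for ELF4, 47.2 ± 6.61 for ELF3, 20.9 ± 1.05 for LUX and 5.27 ± 0.889 for the LUX relative BOA. JMJD5, a JmjC-domain protein, stood at 95.7 ± 3.32 TPM. PRR3, FKF1, PRR5 and GI had 27.7 ± 2.49, 15.7 ± 0.499, 13.4 ± 1.34 and 12.6 ± 1.51 TPM. Of 14 neighbouring pairs in the order of evening levels, 12 did not overlap in range, and the exceptions were COR27 with LUX and PRR5 with GI. Of 5 clock genes known for weak mRNA rhythms, TIC was highest at 89.4 ± 10.3 TPM, and the photoreceptor ZTL had 16.5 ± 1.05 TPM.

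Genes of photosynthesis took the largest shares of counts. The 20 genes of highest mean CPM took 15.97%, 18.19% and 15.55% of all counts, and 16 of them were on the list of 79 nuclear photosynthesis genes. By share of counts RBCS1A, a small subunit of the carbon-fixing enzyme Rubisco, came first with 1000942, 1139249 and 1088501 counts, or 41380 ± 3191 CPM (SD, n = 3). It was followed by LHCB1.3, also named CAB1, a chlorophyll-binding protein of the photosystem II antenna, at 15587 ± 1601 CPM. The other Rubisco small subunits RBCS3B, RBCS2B and RBCS1B were next, at 15099, 12690 and 8436 CPM. The 4 top genes outside the list were CA1, a chloroplast carbonic anhydrase, THI1, which makes the thiazole of thiamine, GLDP1, a photorespiratory glycine decarboxylase subunit, and AT2G10940. AT2G10940 varied most, at 4733 ± 1361 CPM, and was lowest in the third library. This order is of counts and not of levels. Per length RBCS2B and LHCB1.3 were close, at 20580 ± 1733 and 19220 ± 1907 TPM, so their order is uncertain. The metallothionein MT1A entered the first 20 by TPM at 5755 TPM.

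**Figure D2:**
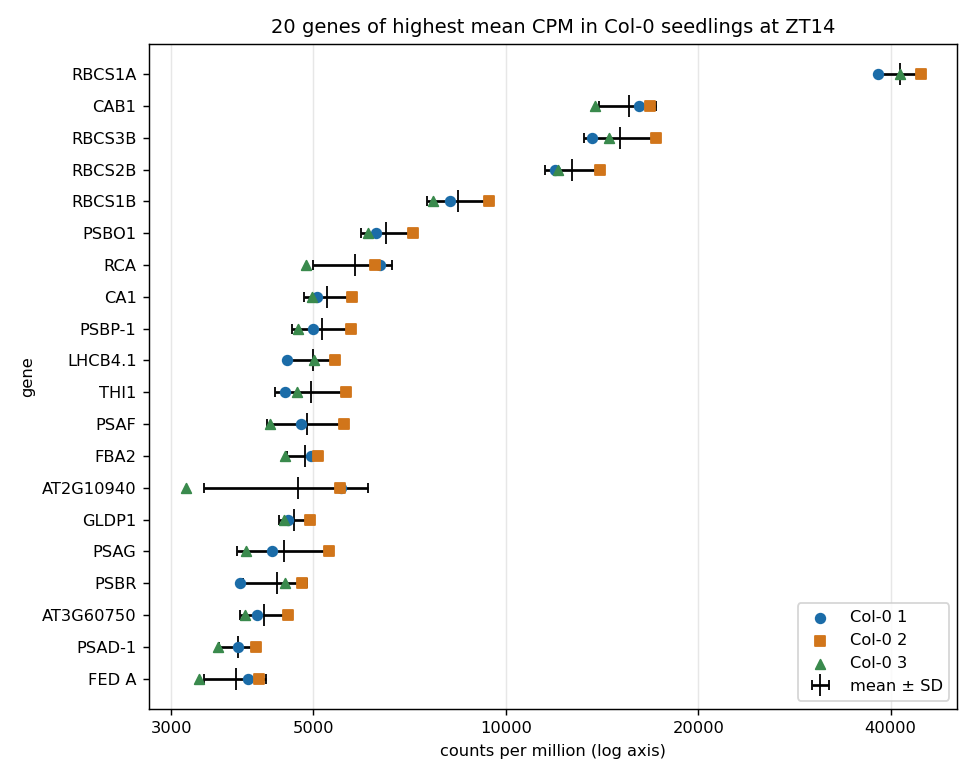
CPM on a log axis of the 20 genes of highest mean CPM in Col-0, with 1 symbol per library and the mean ± SD as a black bar. RBCS1A lies at 38184 to 44566 CPM, apart from all others, and the second library is the highest for most genes.

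The whole photosynthesis list took 22.6%, 25.4% and 22.0% of counts and 28.5 ± 2.04% of TPM. All 79 genes had more than 3 counts and 78 of 79 lay above the all-gene median. The exception was PSBP2, a second copy of the PSBP oxygen-evolving protein, at 4.96 ± 0.747 TPM against 5765 ± 544 TPM for PSBP1. Rubisco and the Calvin cycle formed the largest group at 121644 ± 8642 TPM over 20 genes. The subunits of photosystem I summed to 46634 ± 4467 TPM over 13 genes, those of photosystem II to 46489 ± 3224 TPM over 14 genes, and the photosystem II antenna to 42434 ± 2914 TPM over 15 genes. The photosystem I antenna was lower, at 10980 ± 642 TPM over 6 genes.

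Single subunits differed widely within these groups. In photosystem I the lumen-facing subunit PSAF stood at 6153 ± 783 TPM and PSAG, which borders the antenna, at 8761 ± 1315 TPM. In photosystem II PSBR reached 8482 ± 906 TPM and PSBO1, which steadies the manganese cluster, 6543 ± 523 TPM. Electron transport and ATP synthase genes summed to 17179 ± 1347 TPM over 11 genes. The major leaf ferredoxin FD2, listed as FED A in the annotation, led them at 5836 ± 629 TPM, and of the plastocyanin copies PETE2 stood at 2799 ± 270.2 TPM and PETE1 at 180 ± 12.03 TPM. The antenna protein gene LHCB7 was low throughout, at 16.5 ± 1.13 TPM.

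In the RBCS and LHCB1 families 1 copy held most of the TPM. RBCS1A held 53.2 ± 1.16% of the TPM of the 4 RBCS genes and LHCB1.3 held 68.4 ± 0.657% of that of the 5 LHCB1 genes. LHCB1.1 varied within Col-0 more than its relatives, with 52491, 26567 and 20911 counts. The LHCB2 genes of the same antenna were far lower than LHCB1.3, at 183 ± 12.2 TPM for LHCB2.1, 243 ± 26.1 for LHCB2.2 and 88.6 ± 17.1 for LHCB2.3. These copies are alike in sequence. Between 67.9% and 76.5% of the 31-base words of each LHCB1 gene, 65.6% and 59.6% for LHCB2.1 and LHCB2.2, and 66.3% for RBCS2B occur once in the genome, so how reads were divided among copies is uncertain. The I-box, GATAAG, a light-regulated promoter motif, was in 31 of 79 photosynthesis promoters (39.2%) against 14.6% of all protein-coding promoters, and the G-box was in 23 of 79 (29.1%).

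Hormone genes were mostly present at moderate levels. Of 122 listed genes 116 had more than 3 counts in a Col-0 library, and 57 lay above the all-gene median. The jasmonate group had the largest sum, with 1956, 2273 and 2775 TPM over 15 genes. The median of its gene means was 18.6 TPM, below the 27.9 TPM of the ethylene group. The jasmonate group was led by its biosynthesis enzymes, LOX2 at 978 ± 44.3, AOC2 at 749 ± 241 and AOS at 347 ± 42.4 TPM. Of its 15 genes 10 lay above the all-gene median. The response genes were spread, with 33.1 ± 7.45 and 18.6 ± 7.19 TPM for JAZ2 and JAZ1, repressors that jasmonate induces, and 2.21 ± 1.32 and 1.31 ± 1.18 TPM for the storage protein gene VSP1 and the defensin gene PDF1.2. The salicylic acid group was the least abundant at 53.7 ± 17.8 TPM over 10 genes. Its defence marker PR1 had 0, 8 and 4 counts, while the receptor NPR1 had 517, 545 and 678.

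The receptors and signal carriers of the growth hormones were steady. The auxin receptor TIR1 had 2657, 2891 and 2844 counts, the brassinosteroid receptor BRI1 had 2098, 1985 and 1988, and the gibberellin repressors GAI and RGA stood at 24.6 ± 1.48 and 22.9 ± 1.22 TPM. The kinase gene BIN2, a brassinosteroid repressor, had 4217, 4499 and 5020 counts, and the biosynthesis enzyme gene CPD had 1592, 1633 and 1707. The gibberellin-responsive gene GASA6 led its group at 175 ± 11.4 TPM, while GA3OX1, which makes active gibberellin, was uneven with 440, 175 and 239 counts. In the abscisic acid group, which summed to 195 ± 24.8 TPM over 20 genes, the early enzyme gene ABA1 stood at 46.3 ± 3.44 TPM and the receptor gene PYR1 at 37.9 ± 6.13. NCED3, whose enzyme is rate-limiting under drought, was far lower but even, with 61, 66 and 63 counts. Several biosynthesis genes were barely detected. The auxin enzymes YUC1 and YUC8 had at most 13 and 11 counts, and the ethylene enzyme ACS2 had 5, 0 and 0. The silent hormone genes were YUC9, NCED9, ABI3, ABI4, ERF1 and IPT7. ABI3 and ABI4, seed factors of abscisic acid response, NCED9, an abscisic acid enzyme, and IPT7, a cytokinin enzyme, had 0 counts in all 3 libraries. Cytokinin response was represented by the feedback regulators ARR4, ARR7 and ARR6 at 106 ± 12.5, 31.01 ± 8.76 and 19.97 ± 3.84 TPM.

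**Figure D3:**
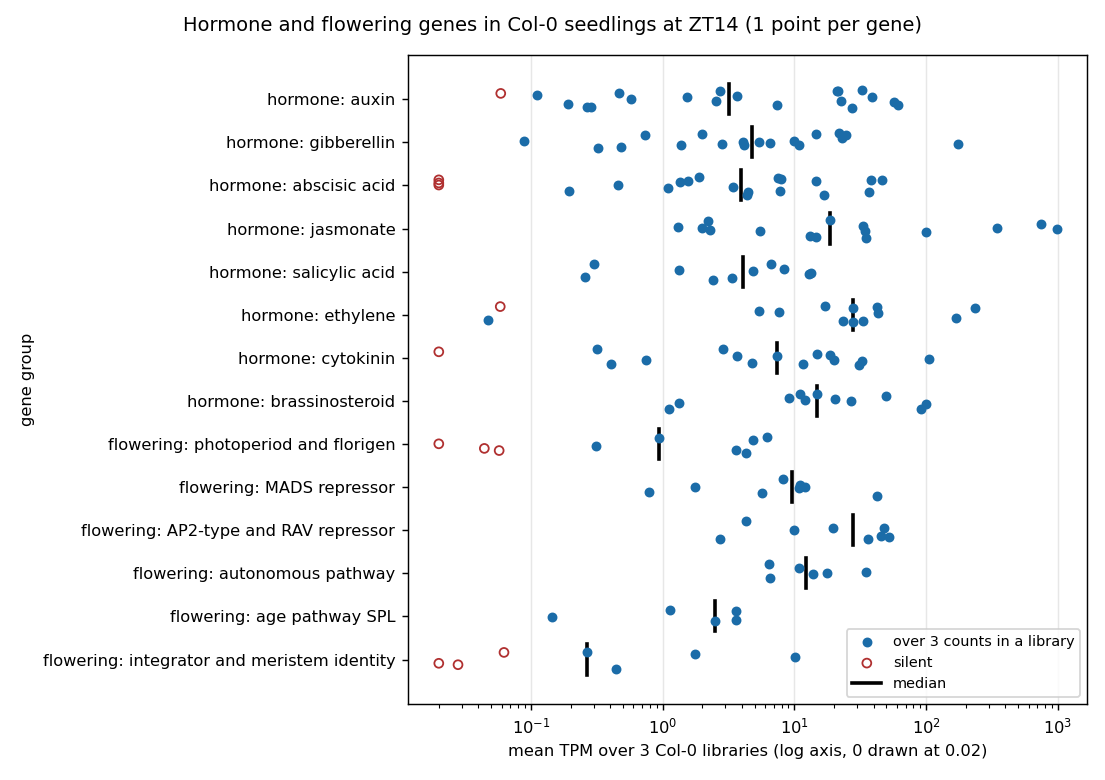
Mean TPM over the 3 Col-0 libraries, on a log axis, of each hormone and flowering gene by group, with the group median as a black line and silent genes as open red circles. The jasmonate genes reach 978 TPM, and 3 of 7 integrator and meristem identity genes are silent.

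The Col-0 libraries were not alike in every hormone gene. Of 17706 genes with a mean of at least 20 counts, 276 (1.56%) were over 2-fold higher in the third library than in both others, and among hormone genes 13 of 99 were, 5 of them among 11 ethylene genes. ERS1, an ethylene receptor, had 556, 740 and 2195 counts, the kinase gene CTR1 downstream of it had 809, 992 and 2917, and EBF2, which directs decay of the factor EIN3, had 841, 939 and 3258. The ethylene enzyme gene ACO4 was also highest there, with 3905, 4685 and 9929 counts. Beyond ethylene, PIN7, an auxin exporter, had 1850, 2024 and 5759 counts, and the phosphatase gene ABI1 had 936, 936 and 2241. In the salicylic acid group, WRKY70 and PR2 were also highest in the third library, PR2 with 21, 35 and 129 counts. ERS1, CTR1, EBF2 and ACO4 were likewise highest in the third 35S:CO library, ERS1 with 24.2, 34.7 and 92.7 CPM. In SUC2:CO these genes were highest in the first library, ERS1 with 53.6, 35.4 and 37.6 CPM.

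The second Col-0 library differed in another way. There 630 of the 17706 genes (3.56%) were over 2-fold lower than in both others, against 188 (1.06%) in the first and 57 (0.322%) in the third. The auxin genes YUC4 and GH3.3 were among them, with 39, 1 and 24 counts for the biosynthesis enzyme YUC4 and 87, 7 and 73 for the auxin-conjugating enzyme GH3.3. The shoot meristem factor STM had 7, 0 and 29 counts and the root stem cell factor WOX5 had 29, 0 and 17. The sum of 3 shoot meristem markers was 7, 0 and 33 counts, and its part in these differences was not tested. No evening, morning or photosynthesis gene with a mean of at least 20 counts was over 2-fold apart from both other libraries.

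Flowering genes spanned the range from silence to well above the all-gene median, which 15 of 43 exceeded. Of 43 listed genes 37 had more than 3 counts in a Col-0 library. CO had 252, 243 and 229 counts and 4.81 ± 0.253 TPM, and FT, its target, had 42, 63 and 75 counts and 3.59 ± 0.988 TPM. The FT paralogue TSF had 0, 10 and 3 counts. Of the FT relatives that repress flowering, BFT had 6.23 ± 1.19 TPM while TFL1, with 0, 0 and 2 counts, was silent. MFT, a relative that acts in seed germination, was at 0.

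The AP2-type and RAV repressors of FT summed to 218 ± 20.4 TPM over 8 genes, led by SNZ, TOE1, SMZ and TOE2 at 52.0 ± 6.15, 47.9 ± 3.66, 45.4 ± 14.7 and 36.5 ± 1.13 TPM. Of these, 6 lay above the all-gene median. The group of MADS-box repressors, which also held FRI, not itself a MADS-box gene, summed to 92.7 ± 5.46 TPM over 8 genes. Of these 8 genes 4 lay above that median, with SVP at 42.4 ± 4.89, FLC at 10.8 ± 0.731 and FLM at 8.23 ± 1.00 TPM. Autonomous-pathway genes, which lower FLC, summed to 90.1 ± 15.9 TPM over 6 genes. FVE was the highest of them, with 1474, 979 and 1456 counts, and FCA had 568, 521 and 717. All 6 were lowest in the second library. The age-pathway genes SPL3, SPL4, SPL9 and SPL15 ran from 1.13 to 3.63 TPM, and each SPL gene has an annotated antisense partner. SOC1, the integrator that reads FT and the repressors, had 212, 274 and 324 counts and 10.13 ± 2.07 TPM, a level whose range overlaps that of FLC. Downstream of it, the meristem identity genes AP1, LFY and CAL were silent, AP1 with 0 counts in every library. FUL and SEP3, floral MADS-box genes, were low but detected, at 1.77 ± 0.498 and 0.444 ± 0.0991 TPM.

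Silent genes, those with 3 counts or fewer in each of the 3 Col-0 libraries, numbered 11699 of 32833 (35.6%), and 8986 of them had 0 counts in all 3. The boundary was not sharp, since the highest count was exactly 3 for 605 genes and exactly 4 for 462. The classes differed widely. Of the protein-coding genes 7445 of 27444 were silent (27.1%), against 2956 of 3480 long non-coding RNA genes (84.9%), 619 of 625 transfer RNA genes (99.0%) and 242 of 325 microRNA genes (74.5%). Small nucleolar RNA genes were mostly detected, with 76 of 287 silent (26.5%). Of the organelle loci, 22 of 133 plastid genes (16.5%) and 114 of 152 mitochondrial genes (75%) were silent. How RNA was selected for these libraries is not given in the sources used here. Silent protein-coding genes had a median merged exon length of 941 bases, against 1769 for those detected.

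**Figure D4:**
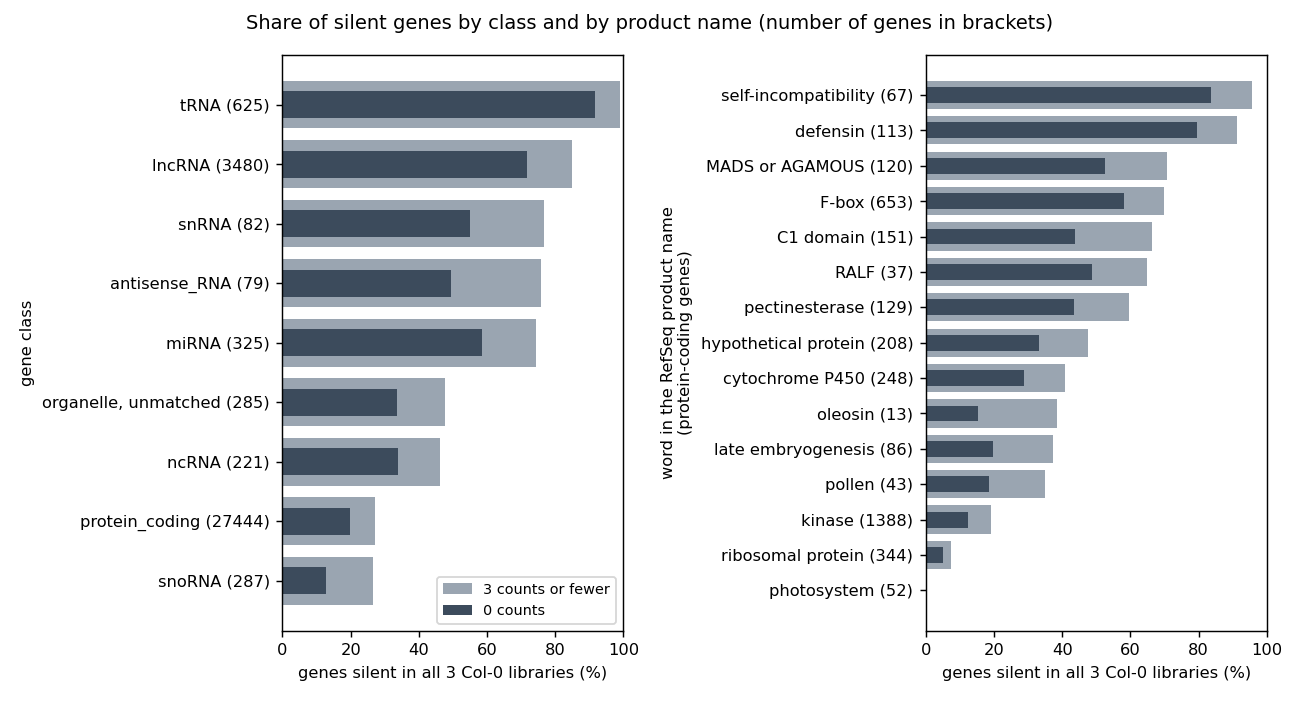
Share of genes silent in all 3 Col-0 libraries (pale bars, 3 counts or fewer; dark bars, 0 counts) by gene class (left, classes of at least 10 genes) and by words in the RefSeq product names of protein-coding genes (right). Transfer RNA genes reach 99.0% and self-incompatibility proteins 95.5%, while no gene named for a photosystem is silent.

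By product name the silent share of protein-coding genes varied between families. Of 67 genes named for self-incompatibility proteins 64 were silent (95.5%), and of 113 defensin genes 103 (91.2%), beside 27.1% of all protein-coding genes. Genes named for MADS or AGAMOUS, some of which specify floral organs, were silent in 85 of 120 cases (70.8%). F-box genes, which pick proteins for degradation, were silent in 456 of 653 cases (69.8%). RALF peptide genes were silent in 24 of 37 cases (64.9%). Genes named for pectinesterases or for the plant invertase and pectin methylesterase inhibitor family, counted together, were silent in 77 of 129 cases (59.7%). Genes named for late embryogenesis proteins were less extreme, at 32 of 86 (37.2%), as were those with pollen in the name, at 15 of 43 (34.9%). At the other end, 25 of 344 ribosomal protein genes (7.27%) and 0 of 52 photosystem genes were silent.

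Silent genes also lay in runs along the chromosomes. The longest run of consecutive protein-coding genes was on chromosome 3, with 32 genes between positions 12593810 and 13489243 of TAIR10.1. On chromosome 5 a run of 29 genes, from AT5G36300 to AT5G36662, held 28 genes of the ECA1 gametogenesis-related family, and none had a count in any of the 9 libraries. This family was chosen after its values were seen, and all 74 of its members were silent. On chromosome 1 a run of 24 genes held 14 thionin genes, and on chromosome 4 a run of 22 held 14 cysteine-rich repeat genes, as RefSeq names them. Over all 9 libraries the highest count of a gene was 134 in the chromosome 1 run, which was thus not silent in every line. It was 3 in the chromosome 3 run and 1 in the chromosome 4 run. In the chromosome 5 run 28 of 29 genes had under 50% of their 31-base words unique in the genome, in the chromosome 1 run 20 of 24 did, and in the chromosome 4 run all 22 did. In the chromosome 3 run 3 of 32 did. Of all silent protein-coding genes 6.36% had under 50% unique words, against 0.985% of those detected. Reads that match several places may have been dropped in counting, and the part of this was not tested.

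Most genes silent in Col-0 were silent in the transgenic lines as well. Of the 11699 genes, 11056 (94.5%) were also silent in 35S:CO, where they were 93.4% of that line's silent genes, and 11078 (94.7%) were in SUC2:CO, where they were 92.0%. In all 9 libraries 10689 genes were silent. Silent in Col-0 but above 3 counts in every library of the line were 83 genes for 35S:CO and 82 for SUC2:CO, and the reverse held for 44 and 63 genes. PRR9 belonged to both sets of the first kind, with 9, 15 and 23 counts in 35S:CO and 21, 25 and 32 in SUC2:CO.

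Where the Col-0 levels differ from those of the lines was tested with edgeR over 19149 genes, with genotype as the only term. The SUC2:CO line also carries the co-10 background, and both comparisons share the Col-0 libraries. CO itself, at 8.71 to 9.61 CPM in Col-0, reached 558 to 724 CPM in 35S:CO and 48.4 to 59.1 CPM in SUC2:CO. Of all genes 11.8% were called in 35S:CO against Col-0 and 32.3% in SUC2:CO, at an adjusted p under 0.05. These numbers changed where 1 library was left out. In 35S:CO they fell from 2261 genes to 1159 without 35S:CO replicate 2 and to 1373 without Col-0 replicate 1. In SUC2:CO they fell from 6176 genes to 3572 without SUC2:CO replicate 3 and to 3954 without Col-0 replicate 1, and rose to 6615 without Col-0 replicate 2. With the replicate number as a block, 3033 genes were called in 35S:CO, 1441 higher and 1592 lower.

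Most morning genes were lower in Col-0 than in the lines. In 35S:CO 15 of 20 morning genes were higher than in Col-0 and none was lower, beside 6.32% of all genes higher and 5.48% lower. In SUC2:CO 12 of 20 were higher and none lower, beside 15.5% and 16.8% of all genes. The median log2 difference over the list was 1.13 and 1.01, beside -0.04 and -0.02 over all genes tested. LHY had 0.704 to 0.913 CPM in Col-0, 13.3 to 16.5 CPM in 35S:CO and 3.08 to 4.03 CPM in SUC2:CO. Its log2 difference was 4.21 ± 0.175 in 35S:CO (edgeR adjusted p = 2.58e-07) and 2.25 ± 0.177 in SUC2:CO (edgeR adjusted p = 8.83e-05, ± SE). RVE2, the exception in Col-0, was not called in either line, at 0.23 and 0.13. Of the 15 evening genes 2 were higher and 5 lower in 35S:CO, and 9 were higher and 1 lower in SUC2:CO. TOC1, with 103 to 118 CPM in Col-0, had 96.3 to 107 CPM in 35S:CO, and its log2 difference was -0.07 ± 0.09 (edgeR adjusted p = 0.689).

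The Rubisco and Calvin cycle genes did not pass the test in either line. None of 20 was called by edgeR in 35S:CO, with 0 at an unadjusted p under 0.05 and 0 by DESeq2, and none in SUC2:CO, with 2 at an unadjusted p under 0.05 and 3 by DESeq2. Without Col-0 replicate 2, 5 of 20 were called in SUC2:CO. RBCS1A had 38184 to 44566 CPM in Col-0 and a log2 difference of 0.01 ± 0.17 in 35S:CO and -0.22 ± 0.17 in SUC2:CO. In the photosystem II antenna 7 of 15 genes were higher and 1 was lower in each line, and in 35S:CO 5 were called without 35S:CO replicate 2 or without Col-0 replicate 1. All 3 LHCB2 genes, which were low in Col-0, were among those higher. LHCB2.1 had 158 to 179 CPM in Col-0, 875 to 1236 CPM in 35S:CO and 349 to 552 CPM in SUC2:CO. Over the whole photosynthesis list 10 of 79 genes (12.7%) were called in 35S:CO, a share near the 11.8% of all genes, 5 without 35S:CO replicate 2, and 6 without 35S:CO replicate 1, Col-0 replicate 1 or Col-0 replicate 3. In SUC2:CO 11 (13.9%) were called, beside 32.3% of all genes, 28 without Col-0 replicate 2 and 20 by DESeq2.

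The shares of all genes called, 11.8% in 35S:CO and 32.3% in SUC2:CO, also apply to the hormone groups. The salicylic acid group was higher in 35S:CO for 7 of 9 genes tested (77.8%), with a median log2 difference of 1.42. PR2, which encodes a glucanase, had 0.801 to 4.91 CPM in Col-0 and 13.3 to 29.6 CPM in 35S:CO. In SUC2:CO 3 of 9 were higher and 1 lower (44.4% called). Of 17 abscisic acid genes 8 were higher and 1 lower in 35S:CO (52.9% called), and 8 were higher and none lower in SUC2:CO (47.1% called), where 4 were called without Col-0 replicate 1 or SUC2:CO replicate 2 and 5 without SUC2:CO replicate 3. ABA1, which encodes zeaxanthin epoxidase, had 73.6 to 84.0 CPM in Col-0 and 246 to 262 CPM in 35S:CO. Cytokinin genes were called in 9 of 14 cases in SUC2:CO (64.3%), 6 of them lower, and in 1 of 14 in 35S:CO. Those lower included ARR6 and ARR7, with 15.0 to 22.2 and 16.0 to 25.4 CPM in Col-0 and 4.15 to 7.15 and 4.34 to 7.61 CPM in SUC2:CO. No ethylene gene was called by edgeR in 35S:CO, with 2 of 11 at an unadjusted p under 0.05 and 0 by DESeq2, and 1 was called without 35S:CO replicate 1, Col-0 replicate 1 or Col-0 replicate 3. With the replicate number as a block, which pairs these libraries, 2 ethylene genes were called, 1 higher and 1 lower. Among 36 flowering genes tested, 12 (33.3%) were called in 35S:CO, 7 without 35S:CO replicate 2, beside 11.8% of all genes, and 15 (41.7%) in SUC2:CO, beside 32.3%. The flowering list includes CO itself, which both lines express from a transgene. FT had 1.60 to 2.85 CPM in Col-0 against 89.96 to 160 CPM in 35S:CO and 297 to 355 CPM in SUC2:CO.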

How the data were processed

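RNA from 9 seedling samples was sequenced, and the authors deposited a table of counts per gene, whole numbers with no normalization. Per the labels' protocols, RNA came from the RNeasy Plant Mini Kit and libraries were strand-specific. The submitters' processing notes name FastQC, STAR, featureCounts, limma and TAIR10, with no versions or roles. Whether counting used strand is not given in the sources used here, so the 73 of 306 listed genes with an annotated antisense partner are uncertain.

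CPM used library totals, and TPM used merged exon lengths of TAIR10.1, matched by locus tag for 32548 genes. The 285 organelle loci did not match. Promoters and unique 31-base words came from the same genome. Python 3.11.15 with pandas 2.3.3 was used, and edgeR 4.0.16 in R 4.3.3 for the tests (filterByExpr, TMM scaling, quasi-likelihood F-tests with a genotype term over all 9 samples, Benjamini-Hochberg adjustment over 19149 genes, two-sided). DESeq2 1.42.0 was an alternative. In simulated counts for 35S:CO against Col-0, over 18803 genes, edgeR recovered 78% of genes changed 2-fold and 97% of those changed 4-fold, with 3.31% of calls false. The simulation gave every gene the same dispersion and drew unpaired libraries, so these rates need not hold for the real counts. SDs and SEs cover the variation between these libraries, and floors cover counting error only.

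The members, lists and tests were chosen with earlier results of these data known. Named genes were the 20 of highest mean CPM, every gene of the lists, and silent genes by class, chromosome and product words. Other alternatives were no low-count filter, RLE scaling, a block for the replicate number, omission of each library in turn, other thresholds for silence and other gene lengths. No 2 Col-0 libraries were identical. Same-numbered libraries of 35S:CO and Col-0 deviated together (correlations of 0.435, 0.302 and 0.248 across genes), so the numbers were taken to pair them. The main fit had no term for this pairing, which rests on 3 libraries per genotype and is not stated in the labels. For SUC2:CO and Col-0 they did not (0.119, 0.0702 and -0.0803).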

Additional observations from a re-analysis of the deposited data

How the results depend on the processing

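The number of silent genes, 11699, was 8986 when 0 counts were required, 13556 at 10 counts or fewer and 12604 for a mean of 3 or fewer, and 11961 to 12276 when 1 Col-0 library was left out. The photosynthesis share moved from 23.3% of counts to 28.5% of TPM, and the share of the 20 highest genes from 16.6% of counts to 20.6% of TPM, where genes are ranked by TPM. The ratio of evening to morning sums, 14.02, became 2.92 without GRP7 and CAT3, 38.5 without RVE2 and 8.00 without all 3, alternatives chosen after seeing the data, and was 12.8 to 15.3 when 1 Col-0 library was left out. The longest transcript in place of merged exons gave 14.1. Organelle genes had no length and were already outside TPM, so leaving them out of it was not run separately. Called genes numbered 2261 in 35S:CO and 1159 to 2167 when 1 library was left out, and 6176 in SUC2:CO and 3572 to 6615. The share of calls that were higher in 35S:CO was 53.6%, and 75.2% without 35S:CO replicate 2. DESeq2 gave 2884 and 6566, no filter 2238 and 5892, and RLE scaling 2150 and 6176. With the replicate number as a block, which the pairing check favoured for 35S:CO, 3033 genes were called there. Of these, 1441 were higher and 1592 lower, so that 47.5% were higher. For SUC2:CO the samples share only a number, and 6902 were called with the block. In that fit photosynthesis calls rose from 11 to 22 in SUC2:CO. Of the counts of list genes called, 285 stayed within 1.5 times under these settings and 27 did not, 22 of those when a library was left out. This tally left out the markers and most subgroups, some of which were less stable. Auxin calls in SUC2:CO, 3 in the main fit, ran from 0 to 5 when 1 library was left out. Jasmonate calls in 35S:CO, 4 in the main fit, ran from 1 to 6, and gibberellin calls there, also 4, from 1 to 3. At this depth a gene under 0.114 CPM cannot be told from silence.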
